A study of Mus musculus with 6 samples.

Results

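Transcripts of 9 leukocyte adhesion receptors and integrin subunits were followed in mouse N-myc leukaemia cells lacking or retaining Cdh1. The 9 genes, out of 18193 genes measured, were Adgre5, Pecam1, Itgal, Itgb2, Itga4, Itgb1, Cd44, Icam1 and Selplg. They were chosen by name for their role, with earlier results of these data known. Shares over all genes printed beside their counts are therefore description, not a test. Each was read at its brightest probe set, taken over the 6 arrays from the sets annotated to that symbol alone. All 9 were measured and no filter on level was applied. The data are 6 expression arrays of GFP-positive bone marrow mononuclear cells, 3 Cdh1-deficient and 3 Cdh1-intact, with 1 moribund mouse per array. The Cdh1-deficient donors were Mx1-Cre(+)/Cdh1f/f mice and the Cdh1-intact donors Mx1-Cre(-)/Cdh1f/f littermates, all on a C57BL/6 background. Both groups carried the floxed gene-trap allele and were injected with pIpC at 7 to 8 weeks of age, and both received 5-fluorouracil (150 mg/kg) before marrow was taken. N-myc was introduced into cells of both groups with the retroviral vector pMXs-IG. The Mx1 promoter responds to interferon, so pIpC turns on Cre in blood-forming cells but also in other tissues. Cre was present in the Cdh1-deficient donors only, so loss of Cdh1 and presence of Cre cannot be told apart. The Cdh1 of the study is the activator of the anaphase-promoting complex encoded by Fzr1, not the adhesion protein E-cadherin, to which the mouse symbol Cdh1 belongs.

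Leukocytes hold on to vessel walls and marrow stroma through selectin ligands, integrins and immunoglobulin-like receptors. An integrin is a dimer of an alpha and a beta chain: Itgal and Itgb2 encode the chains of LFA-1, which binds the product of Icam1, and Itga4 and Itgb1 encode those of VLA-4, which binds VCAM-1 and fibronectin. Selplg encodes PSGL-1, the ligand of P-selectin, Cd44 the hyaluronan receptor, Pecam1 the junctional receptor CD31, and Adgre5 the adhesion receptor CD97, which binds CD55. In marrow, VLA-4 and CD44 are known to anchor immature B-lineage cells to stroma.

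The arrays were not alike in the lineage transcripts they carried. The part of this in the differences of the 9 genes was not tested. On Cdh1-intact array 2 the mean of 8 B-cell markers was 4.85, against 8.43 to 8.89 on the Cdh1-deficient arrays and 8.66 and 9.17 on the other Cdh1-intact arrays (log2). The T and NK cell markers (7 genes) averaged 5.14 to 5.18 on the Cdh1-deficient arrays, against 5.55, 10.03 and 7.16 on Cdh1-intact arrays 1, 2 and 3. The labels call the cells B-cell leukaemia, and the B-cell markers Cd79a, Cd79b, Ms4a1, Pax5, Ebf1 and Blnk were at 3.97 to 5.06 on Cdh1-intact array 2. Of the other B-cell markers, Vpreb1 was at 4.31 there. Igll1 was at 6.63, within its range of 6.53 to 7.12 on the other arrays. Neutrophil markers (9 genes) averaged 9.22, 11.26 and 10.01 on Cdh1-deficient arrays 1, 2 and 3, and 10.0, 6.06 and 9.09 on the Cdh1-intact arrays. The means of the monocyte and macrophage markers (7 genes) and of the erythroid markers (4 genes) were highest on Cdh1-intact array 1, at 7.35 and 5.67. On the other 5 arrays they were 4.87 to 6.13 and 4.33 to 4.54. Over all genes Cdh1-intact array 2 correlated at r = 0.933 to 0.945 with the other arrays, which correlated at 0.979 to 0.993 with each other. Fzr1 averaged 8.01 ± 0.25 on the Cdh1-deficient and 8.63 ± 0.51 on the Cdh1-intact arrays (log2, SD, n = 3 each), with overlapping groups and a difference that did not pass (adjusted p = 0.849).

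None of the 9 genes passed the test between Cdh1-deficient and Cdh1-intact cells, and 7 of 9 had a lower mean in Cdh1-deficient cells. The test was limma on the log2 values of all 18193 genes, with Benjamini-Hochberg adjustment and a threshold of 0.05. It called 0 genes in all (0%), with a lowest adjusted p of 0.849, while 1000 genes (5.50%) had an unadjusted p under 0.05, 1.49% lower and 4.01% higher in Cdh1-deficient cells. Among the 9, Adgre5 and Pecam1 had such a p, both with a lower mean in Cdh1-deficient cells. The median difference of the 9 genes, Cdh1-deficient minus Cdh1-intact, was −0.57 on the log2 scale, beside 0.0034 over all genes, of which 49.1% had a difference below 0. With Cdh1-intact array 2 left out the median of the 9 was −0.22, with 6 of 9 below 0, beside 49.2% of all genes.

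**Figure D1:**
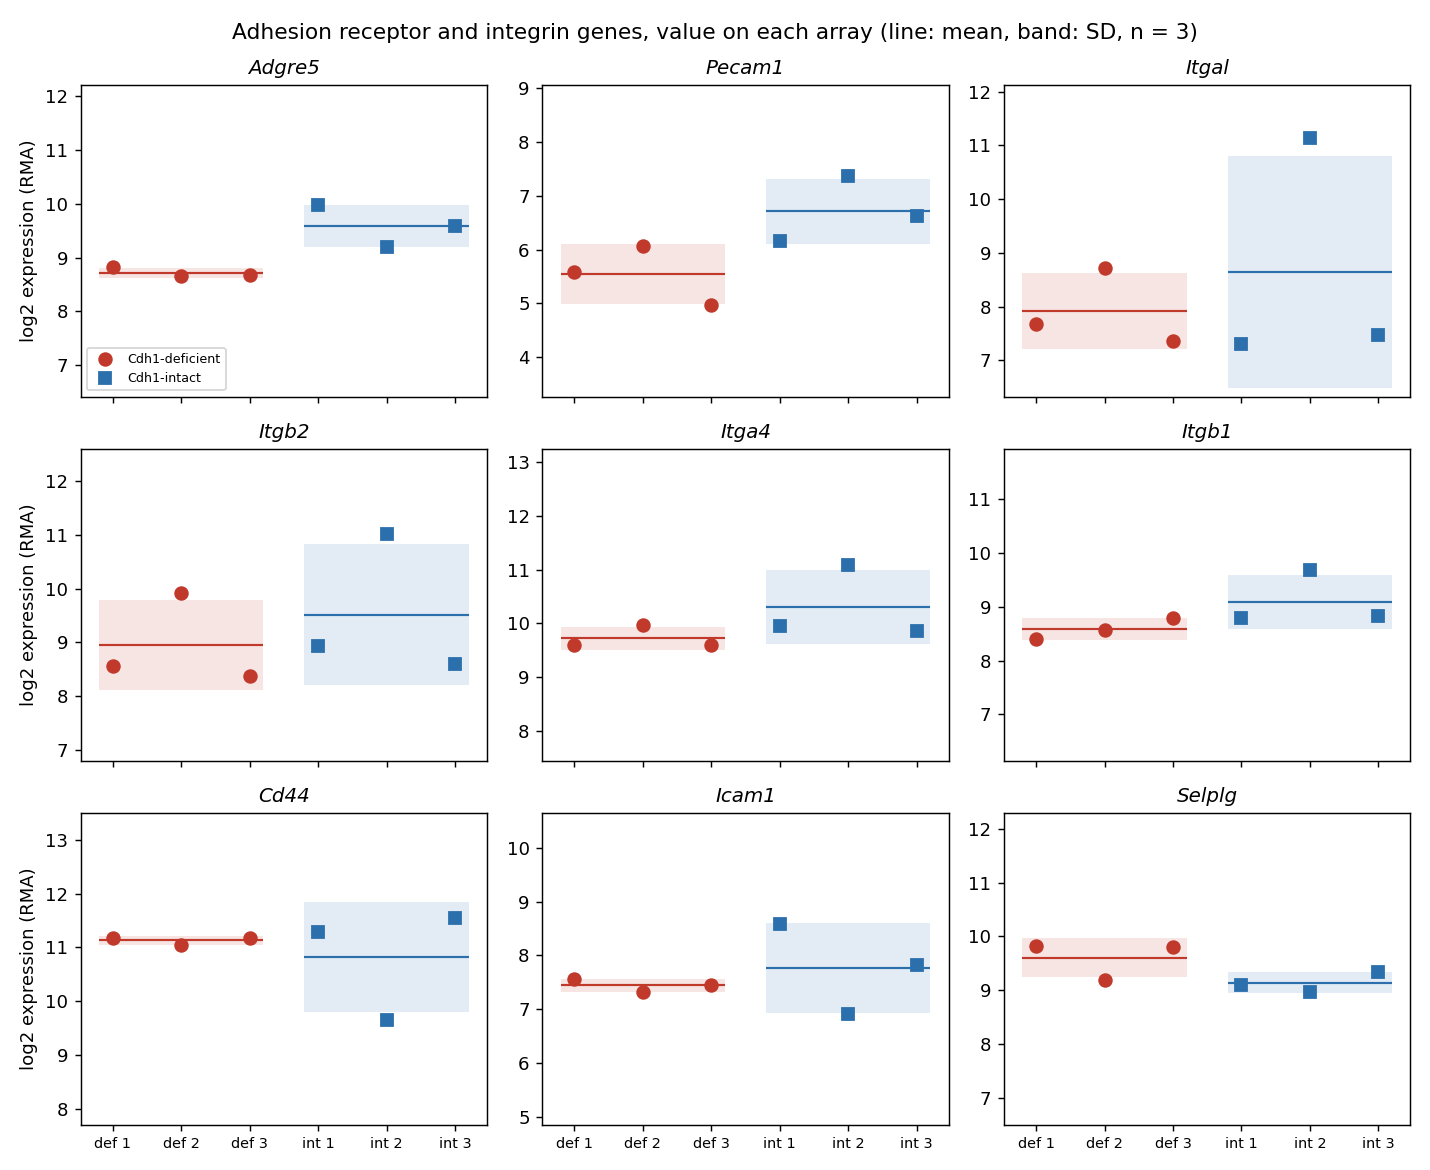
Log2 expression of each of the 9 genes on the 6 arrays, with Cdh1-deficient arrays as circles (def 1 to 3) and Cdh1-intact arrays as squares (int 1 to 3); lines are group means and bands the SD (n = 3), and every panel spans the same log2 range. Adgre5 and Pecam1 are the 2 genes whose groups do not overlap, and Cdh1-intact array 2 is the highest array for 5 genes and the lowest for 3.

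The adhesion receptor Adgre5 had the smallest p of the 9. Its log2 levels were 8.83, 8.66 and 8.68 on Cdh1-deficient arrays 1, 2 and 3, against 9.97, 9.19 and 9.59 on the Cdh1-intact arrays. All Cdh1-deficient arrays lay below all Cdh1-intact arrays, and the Cdh1-deficient values lay close together (SD 0.096, against 0.39 in Cdh1-intact). The difference was −0.86 (SE 0.21, 95% interval −1.37 to −0.35), or a ratio of 0.55, with an unadjusted p of 0.00623 and an adjusted p of 0.849. On Cdh1-intact array 2, which stood apart in lineage transcripts, Adgre5 was the lowest of the Cdh1-intact arrays, and the difference widened to −1.06 when it was left out (SE 0.16, adjusted p = 0.801). Cdh1-intact array 1, the highest for Adgre5, also had the highest means of the monocyte and macrophage and of the erythroid markers. Among these markers Cd68 was highest on Cdh1-deficient array 2 (7.40), Epb42 on Cdh1-intact array 2 (4.34) and Hba-a1 on Cdh1-intact array 3 (3.61). The part of monocytes, macrophages and erythroid cells in the result was not tested. Without Cdh1-intact array 1 the difference was −0.67. Cd55, which encodes the binding partner CD55, ran the other way. It was named for the smallest p among 16 measured ligands and binding partners of the 9 genes, of which 9 had a lower mean. Cd55 levels were 8.33, 8.57 and 8.15 on the Cdh1-deficient and 7.31, 6.35 and 7.69 on the Cdh1-intact arrays, a difference of 1.24 (SE 0.35, adjusted p = 0.849), with no overlap. Without Cdh1-intact array 2, the lowest for Cd55, the difference was 0.85.

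Pecam1, whose product CD31 binds itself between adjoining cells, had the largest difference of the 9. Its levels were 5.59, 6.07 and 4.96 on the Cdh1-deficient arrays and 6.15, 7.36 and 6.63 on the Cdh1-intact arrays. The groups did not overlap, but Cdh1-deficient array 2 and Cdh1-intact array 1 were only narrowly apart. The difference was −1.17 (SE 0.40, 95% interval −2.15 to −0.19), a ratio of 0.444, with an unadjusted p of 0.0268 and an adjusted p of 0.849. It was −0.85 without Cdh1-intact array 2, the highest for this gene (SE 0.35, 95% interval −1.72 to 0.02). Pecam1 is abundant in endothelial cells and platelets, whose part in the result was not tested. The mean of 5 endothelial markers was 4.82 to 5.02 on the Cdh1-deficient and 4.87 to 5.10 on the Cdh1-intact arrays, with Cdh5, Tek and Emcn at 3.53 to 3.91 and Kdr at 5.57 to 5.71 on all 6. Egfl7, the other endothelial marker, lay at 7.88, 7.68 and 8.33 on the Cdh1-deficient and 7.80, 9.05 and 7.68 on the Cdh1-intact arrays, highest on Cdh1-intact array 2, as was Pecam1. The mean of 5 platelet and megakaryocyte markers was 4.92 to 5.09 on the Cdh1-deficient and 4.99 to 5.27 on the Cdh1-intact arrays, and among them Pf4 ranged from 4.66 to 5.09 on the Cdh1-deficient and from 4.50 to 5.54 on the Cdh1-intact arrays. The mean of the T and NK cell markers was higher on each Cdh1-intact array than on the Cdh1-deficient arrays. It was highest on Cdh1-intact array 2, as was Pecam1. Not every marker did so. Cd3g on Cdh1-intact array 1 (3.25) lay below its 3.31 to 3.52 on the Cdh1-deficient arrays, and Klrd1 was lowest on Cdh1-intact array 2 (2.86). The part of T and NK cells in the result was not tested. In sorted bulk cells, fewer cells of a type and less RNA per cell cannot be told apart.

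Adgre5 and Pecam1 were the only 2 of the 9 genes whose groups did not overlap, both with the Cdh1-deficient arrays lower. Over all genes 5.09% did not overlap in that direction and 6.65% in the other, 11.7% together. Without Cdh1-intact array 2 the arrays did not overlap for 4 of 9, all lower in Cdh1-deficient cells, with Cd44 and Icam1 beside Adgre5 and Pecam1, against 10.2% of all genes. In that setting Adgre5 and Icam1 had an unadjusted p under 0.05, beside 6.17% of all genes, and the lowest adjusted p of all genes was 0.801.

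Both chains of LFA-1 differed more between arrays of a group than between the groups. Itgal, the alpha chain, lay at 7.69, 8.71 and 7.36 on Cdh1-deficient arrays 1, 2 and 3 and at 7.31, 11.14 and 7.48 on the Cdh1-intact arrays. Itgb2, the beta chain that LFA-1 shares with myeloid integrins, lay at 8.55, 9.91 and 8.38 on the Cdh1-deficient and 8.92, 11.02 and 8.60 on the Cdh1-intact arrays. For both genes Cdh1-intact array 2 was the highest and Cdh1-deficient array 2 the second highest, and the groups overlapped. The difference was −0.72 (SE 1.08, 95% interval −3.38 to 1.93) for Itgal and −0.57 (SE 0.74, 95% interval −2.39 to 1.26) for Itgb2. Both turned positive without Cdh1-intact array 2, to 0.52 (SE 0.40) and 0.18 (SE 0.48), so the direction rested on that array. Cdh1-intact array 2 had the highest mean of T and NK cell markers and Cdh1-deficient array 2 the highest mean of neutrophil markers. Both cell classes are known to carry LFA-1. Itgam, which encodes another alpha chain that pairs with Itgb2 on myeloid cells, was named for this pairing after its values were seen. It lay at 4.21, 6.03 and 4.04 on the Cdh1-deficient arrays and 4.48, 3.44 and 4.14 on the Cdh1-intact arrays, so it was highest on Cdh1-deficient array 2 and lowest on Cdh1-intact array 2. The part of these cells in the levels of Itgal and Itgb2 was not tested.

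The genes of VLA-4, the dimer of Itga4 and Itgb1, had the smallest distance between profiles of any pair among the 9. The root mean square difference between the profiles of Itga4 and Itgb1, each centred on its own mean over the 6 arrays, was 0.21 on the log2 scale, within a range of 0.21 to 1.96 over the 36 pairs. The chains of LFA-1, by the same measure, stood at 0.53. The measure is not scaled, so it also depends on how widely each gene varied. On Cdh1-intact array 2 Itgal and Itgb2 lay 2.9 and 1.8 above their own means, and Itga4 and Itgb1 1.1 and 0.8. It therefore does not show which pair was more alike in shape. These distances describe 6 arrays of which Cdh1-intact array 2 stood apart, and carry no test. Itga4 lay at 9.59, 9.97 and 9.59 on the Cdh1-deficient arrays and at 9.95, 11.09 and 9.86 on the Cdh1-intact arrays. Itgb1, the beta chain common to many matrix-binding integrins, lay at 8.40, 8.57 and 8.80 on the Cdh1-deficient and 8.79, 9.68 and 8.83 on the Cdh1-intact arrays. The highest Cdh1-deficient array exceeded the lowest Cdh1-intact array for each gene, by a small margin for Itgb1. The difference was −0.58 (SE 0.35, 95% interval −1.45 to 0.28) for Itga4 and −0.51 (SE 0.27, 95% interval −1.17 to 0.15) for Itgb1. The differences without Cdh1-intact array 2 were −0.19 (SE 0.16) and −0.22 (SE 0.15).

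**Figure D2:**
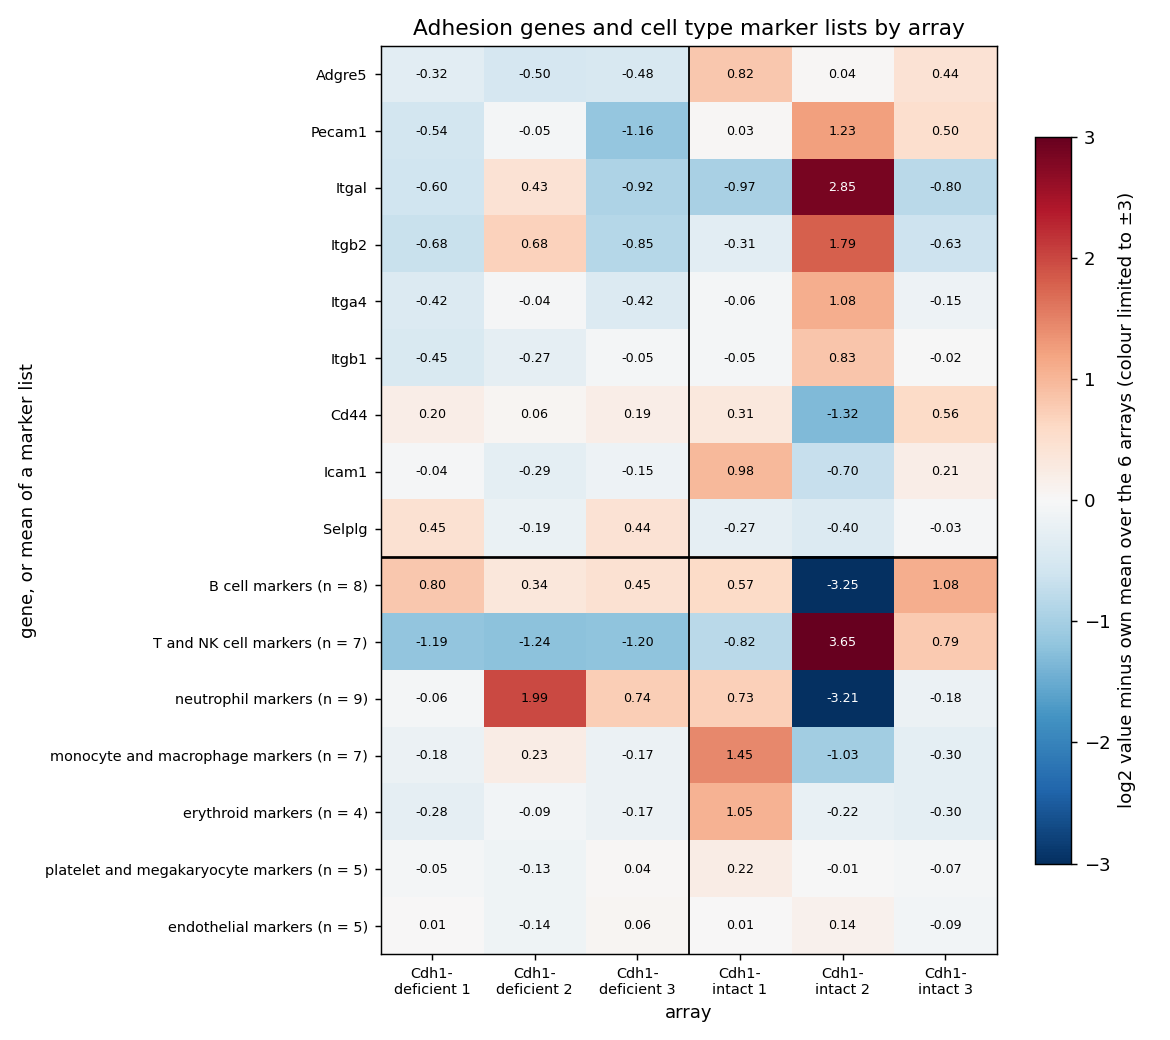
Log2 value on each array minus the row's own mean over the 6 arrays, for the 9 genes (above the line) and for the mean of each marker list (below), with Cdh1-deficient arrays left of Cdh1-intact arrays and red for higher. On Cdh1-intact array 2 Itgal (2.85), Itgb2 (1.79), Pecam1 (1.23), Itga4 (1.08) and Itgb1 (0.83) are at their highest and Cd44 (−1.32), Icam1 (−0.70) and Selplg (−0.40) at their lowest, and there the B-cell and neutrophil lists are at their lowest and the T and NK cell list at its highest.

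The hyaluronan receptor Cd44 and the LFA-1 ligand Icam1 had the opposite array pattern, with their lowest values on Cdh1-intact array 2. Cd44 lay at 11.17, 11.04 and 11.17 on the Cdh1-deficient arrays and at 11.28, 9.65 and 11.54 on the Cdh1-intact arrays. Its difference was 0.30 (SE 0.49, 95% interval −0.91 to 1.51), and it turned to −0.28 (SE 0.14) without Cdh1-intact array 2. Icam1 lay at 7.56, 7.31 and 7.45 on the Cdh1-deficient arrays and at 8.58, 6.91 and 7.81 on the Cdh1-intact arrays. The 3 Cdh1-deficient values of Icam1 lay between those of Cdh1-intact array 2 and Cdh1-intact array 3. Its difference was −0.33 (SE 0.41), became −0.75 (SE 0.25, 95% interval −1.37 to −0.14) without Cdh1-intact array 2, and turned to 0.083 (SE 0.29) without Cdh1-intact array 1. Icam1 was highest on Cdh1-intact array 1, as were the means of the monocyte and macrophage and of the erythroid markers. The part of these cells was not tested.

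Selplg, the gene of PSGL-1, and Cd44 were the 2 genes of the 9 with a higher mean in Cdh1-deficient cells. Its levels were 9.82, 9.18 and 9.81 on the Cdh1-deficient arrays and 9.10, 8.97 and 9.35 on the Cdh1-intact arrays. Cdh1-deficient arrays 1 and 3 were the highest, and Cdh1-deficient array 2 lay among the Cdh1-intact arrays. The difference was 0.46 (SE 0.21, 95% interval −0.06 to 0.99, adjusted p = 0.849), a ratio of 1.38, and 0.38 (SE 0.24) without Cdh1-intact array 2. Selplg lies on chromosome 5. Of 608 chromosome 5 genes at or above the median level of all genes, 87.0% had a positive difference, with a median of 0.36, against 62.5% of all genes at such levels. The part of chromosome 5 in the value of Selplg was not tested.

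**Figure D3:**
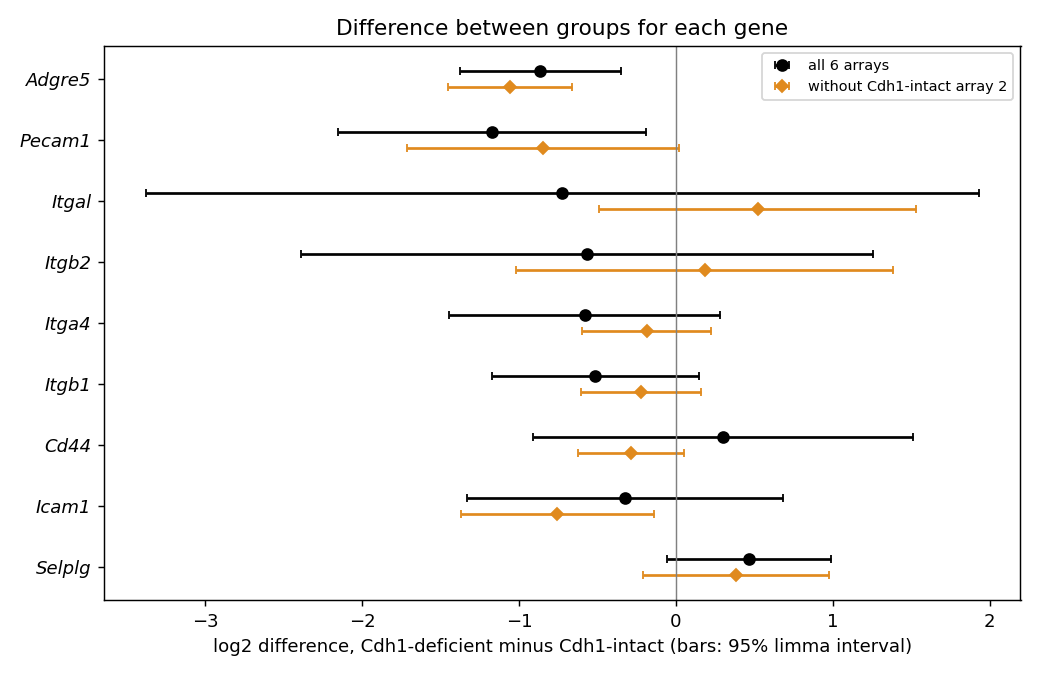
Difference in log2 expression (Cdh1-deficient minus Cdh1-intact) for each of the 9 genes with its 95% limma interval, over all 6 arrays (circles) and without Cdh1-intact array 2 (diamonds). Adgre5 and Pecam1 stay below 0, at −1.06 and −0.85 without that array, while Itgal, Itgb2 and Cd44 change sign.

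The groups also differed in how far their arrays spread. The SD was smaller among Cdh1-deficient than among Cdh1-intact arrays for 8 of 9 genes, Selplg being the exception, beside 65.5% of all genes. For Cd44 it was 0.076 in Cdh1-deficient and 1.02 in Cdh1-intact cells, and for Itgal 0.71 and 2.16 (n = 3 each). Without Cdh1-intact array 2 the Cdh1-deficient SD was the smaller for 3 of 9. This sets 3 Cdh1-deficient arrays against fewer Cdh1-intact arrays, and no share over all genes was taken for it. Cdh1-intact array 2 was the highest or lowest of the 6 for 8 of 9 genes, beside 45.7% of all genes, and Adgre5 was the exception.

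Further probe sets were available for 4 of the genes. The 9 genes had 22 probe sets in all, of which 19 had a lower mean in Cdh1-deficient cells, beside 51.9% of all probe sets with 1 symbol. All 5 probe sets of Itga4 had a lower mean, with differences from −0.92 to −0.37, the last for a probe set near the floor (means 2.98 and 3.35). For 2 of them the groups did not overlap. The first lay at 6.52, 6.56 and 5.98 on the Cdh1-deficient and 7.23, 7.67 and 6.89 on the Cdh1-intact arrays, and the other at 5.09, 4.90 and 5.04 on the Cdh1-deficient and 6.14, 6.38 and 5.26 on the Cdh1-intact arrays. The probe set used for Itga4, the brightest of its 5, did overlap. Of 6 probe sets of Itgb1, 5 had a lower mean in Cdh1-deficient cells, and the second brightest lay at 8.02, 8.11 and 8.13 on the Cdh1-deficient and 8.44, 9.09 and 8.20 on the Cdh1-intact arrays, with no overlap. Non-overlap with Cdh1-deficient lower occurred for 7 of the 22 probe sets, beside 5.85% of all probe sets. These include Itgb1 probe sets near the floor, at 3.30 to 3.71 and 2.47 to 2.91 over the 6 arrays. The Itgb1 probe set with a positive difference was also near the floor, at 3.16 to 3.28. Probe sets of a gene share its transcripts and arrays, so they are not independent. Of the 4 probe sets of Cd44, the one used had a positive difference (0.30) and the other 3 had differences of −0.16 to −0.09. The probe set at −0.12 lay near the floor (means 3.09 and 3.21). The direction of Cd44 therefore rested on the probe set, and its mean over all 4 differed by −0.015. No probe set of the 9 genes passed when every probe set was tested.

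**Figure D4:**
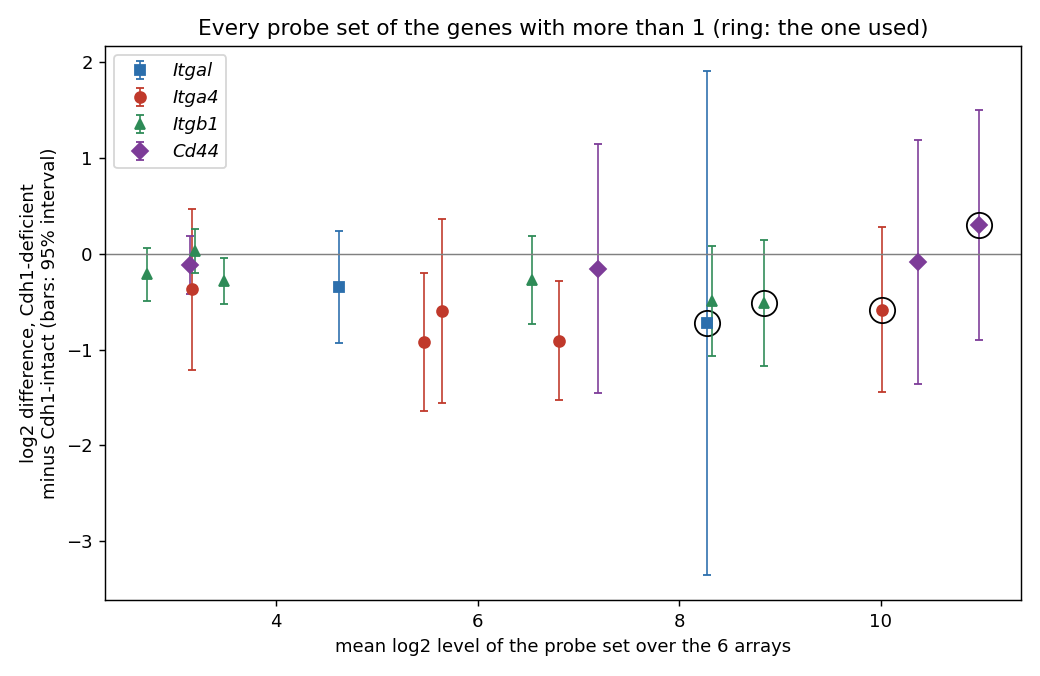
Difference in log2 expression (Cdh1-deficient minus Cdh1-intact, with 95% limma interval) against the mean log2 level, for every probe set of Itgal, Itga4, Itgb1 and Cd44; rings mark the probe set used for each gene. All 5 Itga4 probe sets lie below 0, and the ringed Cd44 probe set is the only one of its 4 above 0.

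Promoter sequence was read for the 4 of the 9 genes that the RefSeq table used here covers, Itga4, Itgb1, Cd44 and Icam1, and all 4 are shown. They include both chains of VLA-4, the pair with the smallest unscaled profile distance. The profile nearest to that of Icam1 was Adgre5 (0.38 by the same distance, against 0.46 for Cd44). Each sequence holds the 250 bases before the RefSeq gene start in GRCm38.p6, 5′ to 3′ along the gene. Capitals mark matches on either strand to CACGTG (the E-box that MYC proteins bind), GGGCGG (the GC box), GGAAATTCC (a kappaB motif), GAGGAA (a core of ETS factors such as PU.1) and TATAAA. The windows are chr2:79255176-79255425 (plus strand) for Itga4, chr8:128685404-128685653 (plus strand) for Itgb1, chr2:102901666-102901915 (minus strand) for Cd44 and chr9:21015690-21015939 (plus strand) for Icam1.
Itga4: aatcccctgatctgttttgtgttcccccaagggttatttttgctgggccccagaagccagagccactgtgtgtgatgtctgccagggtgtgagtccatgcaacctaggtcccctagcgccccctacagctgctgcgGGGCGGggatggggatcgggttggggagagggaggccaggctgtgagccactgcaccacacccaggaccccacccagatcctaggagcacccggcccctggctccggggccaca
Itgb1: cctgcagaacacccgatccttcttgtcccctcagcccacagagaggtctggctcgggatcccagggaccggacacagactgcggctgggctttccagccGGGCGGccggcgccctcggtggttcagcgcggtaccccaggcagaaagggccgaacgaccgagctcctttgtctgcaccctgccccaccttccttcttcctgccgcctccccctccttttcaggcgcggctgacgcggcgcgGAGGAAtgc
Cd44: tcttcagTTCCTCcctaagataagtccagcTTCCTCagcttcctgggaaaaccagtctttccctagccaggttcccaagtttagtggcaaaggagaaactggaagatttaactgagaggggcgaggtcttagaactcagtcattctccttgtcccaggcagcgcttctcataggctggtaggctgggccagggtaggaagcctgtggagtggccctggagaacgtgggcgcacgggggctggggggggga
Icam1: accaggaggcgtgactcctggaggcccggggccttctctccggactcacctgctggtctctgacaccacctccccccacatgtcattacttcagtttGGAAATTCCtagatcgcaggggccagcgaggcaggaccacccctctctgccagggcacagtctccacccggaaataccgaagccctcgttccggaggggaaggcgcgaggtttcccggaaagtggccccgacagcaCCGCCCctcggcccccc

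The GC box was matched in the windows of Itga4, Itgb1 and Icam1, GAGGAA in those of Itgb1 and, on the other strand, Cd44, and the kappaB letters in that of Icam1, starting 153 bases before the gene start. No matches overlapped. Of 32851 RefSeq promoter windows of this length 32.7% held GGGCGG, 23.3% GAGGAA and 0.286% GGAAATTCC. CACGTG, held by 6.02%, and TATAAA, held by 12.4%, were in none of the 4 windows. Icam1 is known as a target of NF-kappaB. These matches describe letters only.

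No gene of the 7 lists of related genes passed in either direction. Of 14 other integrin subunits 9 had a lower mean in Cdh1-deficient cells, with a median difference of −0.08. Itga1, a collagen-binding alpha chain, differed by −0.60 (SE 0.44), and Itgb7, the beta chain that pairs with Itga4 for gut homing, by 0.48 (SE 0.36). Of 21 genes of integrin activation and actin linkage 11 had a lower mean, with a median of −0.01. The T-cell adaptor Skap1 was at 3.85, 3.70 and 3.99 on the Cdh1-deficient arrays and 3.48, 9.96 and 6.16 on the Cdh1-intact arrays. Rasgrp2, the exchange factor that turns on Rap1 ahead of the integrins, was at 10.56, 10.39 and 11.05 on the Cdh1-deficient and 10.28, 5.85 and 9.82 on the Cdh1-intact arrays. Both sets of values followed the lineage markers of Cdh1-intact array 2, whose part was not tested.

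Of 16 measured ligands and binding partners 9 had a lower mean, with a median of −0.11. Besides Cd55, the integrin-associated Cd47 lay at 10.73, 10.85 and 10.74 on the Cdh1-deficient and 11.33, 11.17 and 10.86 on the Cdh1-intact arrays, with no overlap and a difference of −0.35 (SE 0.15). In this list the groups did not overlap for 3 genes with Cdh1-deficient lower (Cd47, Jam2 and Jam3) and 1 with it higher (Cd55). Over all genes the shares were 5.09% and 6.65%. Of 10 enzymes that build the glycans of selectin ligands such as PSGL-1, 4 had a lower mean and the median was 0.13. The galactosyltransferase B4galt1 differed by 0.66 (SE 0.32) and the tyrosine sulfotransferase Tpst1, on chromosome 5, by 0.56 (SE 0.35). Of 8 genes of CD44 linkage and hyaluronan synthesis 4 had a lower mean, with a median of 0.02. The linker genes Nf2 and Rdx differed by 0.28 (SE 0.14) and 0.62 (SE 0.35). Of 5 measured genes that signal from the tail of CD31 2 had a lower mean, with a median of 0.17. The phosphatase gene Ptpn11, also on chromosome 5, differed by 0.22 (SE 0.14) and the phospholipase gene Plcg2 by 0.76 (SE 0.55). The list of other adhesion receptors of the family of Adgre5 held 8 chosen genes, not the whole family, and 7 were measured. All 7 had a lower mean, by a median of −0.23, which was −0.07 with 5 of 7 without Cdh1-intact array 2. For Adgrl1, Adgrg3, Adgre4, Adgrl4 and Adgre1 the difference was smaller than its SE. Group means of Adgra3, Adgre4, Adgrl4, Adgre1 and Adgrg1 were low, at 4.21 to 5.07, beside array medians of 5.88 to 6.01 over all genes. Adgra3 differed by −0.14 (SE 0.11) and Adgrg1 by −0.27 (SE 0.21).

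Genes whose profiles were most like those of Adgre5 and Pecam1 were sought among 9096 genes at or above the median level, by the root mean square difference of centred log2 values over the 6 arrays. Nearest to Adgre5 were the collagen gene Col27a1 (0.16), the endothelin gene Edn3 (0.19) and the glutathione transferase gene Gstt2 (0.20). Col27a1 lay at 7.20, 7.12 and 7.08 on the Cdh1-deficient arrays and 8.13, 7.19 and 7.76 on the Cdh1-intact arrays, with its highest value, as for Adgre5, on Cdh1-intact array 1. Nearest to Pecam1 were 3830406C13Rik and Armc3 (0.26 and 0.27) and the ubiquitin ligase gene Rnf135 (0.31). Armc3 lay at 5.93, 6.57 and 5.91 on the Cdh1-deficient and 6.82, 7.69 and 6.75 on the Cdh1-intact arrays. Adgre5 and Pecam1 themselves stood 0.68 apart. The 2 genes also differed in their order of arrays, with Adgre5 highest on Cdh1-intact array 1 and Pecam1 on Cdh1-intact array 2.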

How the data were processed

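Total RNA of GFP-sorted marrow cells was hybridised to 1-colour expression arrays. The authors deposited log2 values for 45101 probe sets on each array, made with RMA per the submitters' processing notes (version not stated). RMA corrects background, quantile-normalizes arrays and summarizes probes, so a change of total RNA per cell cannot be seen. The number of arrays limits the precision. Groups and numbers came from the sample titles. The platform annotation gave 34945 probe sets 1 symbol and 932 several, which were not used, and 64 controls were left out. The brightest probe set stood for each of 18193 genes. Some genes of the lists were not analysed here, and counts are over those measured. The comparison used lmFit and eBayes of limma 3.58.1 (R 4.3.3, two-sided), with p-values adjusted by Benjamini-Hochberg over all genes. With 3 arrays a group an exact permutation p cannot go below 0.1, and none was used. The fit was tested on simulated data. The members, the lists and the naming rule (the 9 genes, the 2 list genes of smallest p, the 3 nearest profiles, label checks) were chosen with earlier results of these data known. Alternatives were probe set choice, normalization, level filter, variance model, weights, threshold, replicate block and each array left out, and 1 was added after seeing the data. Promoter sequences and chromosomes came from RefSeq tables of GRCm38.p6. The labels used here state no build for the arrays.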

Additional observations from a re-analysis of the deposited data

How the results depend on the processing

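With limma, 0 of the 9 genes and 0 genes in all passed under each of the 17 alternatives, with 1000 genes at an unadjusted p under 0.05 in the reported fit. The count of genes with a lower mean in Cdh1-deficient cells, 7 of 9, ranged from 5 (of 7 genes left without shared-target probe sets) to 8, and with 1 array left out from 6 to 7. The median difference ranged from −0.80 to −0.22 with 1 array left out. Adgre5 and Pecam1 kept a negative difference in the 16 alternatives that hold their probe sets (−1.06 to −0.67 and −1.45 to −0.85), Itga4 and Itgb1 in 17 of 17 (−0.80 to −0.19 and −0.67 to −0.22), and Selplg kept a positive one in 17 (0.36 to 0.68). The variance model, threshold, level filter, replicate block and testing of every probe set cannot change a gene's difference, so their part of these counts was fixed. Averaging probe sets cannot change it for a gene with 1 probe set. Without Cdh1-intact array 2 the sign turned for Itgal (0.52), Itgb2 (0.18) and Cd44 (−0.28), with the same values when trend and robust estimation were added after seeing the data. Cd44 also turned when its probe sets were averaged (−0.015), and Icam1 without Cdh1-intact array 1 (0.083). With 1 array left out, Itgal ranged from −1.39 to 0.52, Itgb2 from −1.05 to 0.18, Cd44 from −0.28 to 0.66 and Icam1 from −0.75 to 0.083. The cause was not tested. Same-numbered arrays of the groups did not deviate together across genes (r = −0.14, 0.01 and 0.04). This does not settle whether the numbers pair the samples. With the replicate block 0 passed, and the SE of each of the 9 genes was smaller (for Itgb2 0.22 against 0.74). The median of −0.57 and the 7 of 9 lower cannot change with the block, as the design is balanced. The labels used here name no hybridisation batch. Levels near 3 were taken as close to the floor.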
